A study of Mus musculus with 18 samples.

Results

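Livers of mice that lack the aryl hydrocarbon receptor (AHR) in hepatocytes were compared with livers of mice that lack it in hepatic stellate cells, after both had received the dioxin TCDD for 92 days. The comparison takes the 3 libraries titled dHep_TCDD (mice 4, 10 and 16) and the 3 titled dHSC_TCDD (mice 6, 12 and 18), 6 of the 18 libraries of the study, and covers every gene counted. dHep_TCDD stands for AhRΔHep mice and dHSC_TCDD for AhRΔHSC mice, and each had received TCDD at 100 µg/kg. Libraries of the same genotypes given peanut oil (dHep_Veh and dHSC_Veh, 3 mice each) and of control mice with TCDD or peanut oil (WT_TCDD and WT_Veh, 3 mice each) were used beside them. The series text describes the controls as AhRfl/fl mice, that is, mice with a floxed Ahr gene, while their labels say WT. All animals were female C57BL/6 mice dosed by gavage every 4 days, and messenger RNA was selected with poly-T beads from 10 mg of whole liver whose RNA integrity number exceeded 6.8. The labels name neither the Cre driver of each deletion nor the deleted part of Ahr, and they give no age. By its title, the study is concerned with myofibroblast activation under TCDD and AHR signalling in hepatocytes.

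AHR is a ligand-activated transcription factor that, once bound by a ligand such as TCDD, enters the nucleus, pairs with ARNT and binds DNA at a short core sequence. Its best known targets are the cytochromes of the CYP1 family, TCDD-inducible poly(ADP-ribose) polymerase and the AHR repressor, which opposes the receptor. Hepatocytes make up most of the liver's mass and carry most of its drug metabolism, whereas stellate cells store vitamin A and, when activated, become matrix-producing myofibroblasts. In whole liver, fewer cells of a type and less RNA per cell cannot be told apart.

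The AHR core, GCGTG, whose reverse complement reads CACGC, was searched for on both strands in the 250 bases before each RefSeq start site (GRCm38.p6). Sequences are shown for 3 AHR targets that were lower in dHep_TCDD livers and hold it, and for Ism2, a gene with one of the clearest differences whose window does not. Capitals mark the core and its reverse complement. The windows lie at chr13:74292332-74292581, minus strand, for Ahrr, at chr9:57697363-57697612, plus strand, for Cyp1a1, at chr17:79715062-79715311, minus strand, for Cyp1b1, and at chr12:87299706-87299955, minus strand, for Ism2.
Ahrr: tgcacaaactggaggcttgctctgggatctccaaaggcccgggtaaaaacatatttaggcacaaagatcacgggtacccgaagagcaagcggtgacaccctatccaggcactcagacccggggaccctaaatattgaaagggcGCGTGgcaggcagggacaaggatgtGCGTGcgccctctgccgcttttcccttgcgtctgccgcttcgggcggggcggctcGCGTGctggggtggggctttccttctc
Cyp1a1: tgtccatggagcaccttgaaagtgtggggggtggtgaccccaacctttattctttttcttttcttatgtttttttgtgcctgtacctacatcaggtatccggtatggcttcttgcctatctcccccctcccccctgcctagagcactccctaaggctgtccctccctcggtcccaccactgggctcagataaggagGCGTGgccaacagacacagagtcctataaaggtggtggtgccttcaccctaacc
Cyp1b1: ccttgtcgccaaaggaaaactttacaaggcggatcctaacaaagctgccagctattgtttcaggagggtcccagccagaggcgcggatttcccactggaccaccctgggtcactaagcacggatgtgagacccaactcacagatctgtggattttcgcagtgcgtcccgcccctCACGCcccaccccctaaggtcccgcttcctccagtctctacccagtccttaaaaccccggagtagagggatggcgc
Ism2: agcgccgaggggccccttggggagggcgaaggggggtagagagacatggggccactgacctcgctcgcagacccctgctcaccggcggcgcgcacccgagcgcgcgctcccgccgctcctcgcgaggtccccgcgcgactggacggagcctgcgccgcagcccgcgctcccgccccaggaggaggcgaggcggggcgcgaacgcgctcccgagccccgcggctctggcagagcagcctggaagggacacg

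The core occurred in the windows of 35% of the 60 matched genes that were higher in dHep_TCDD livers and of 43.2% of the 95 matched genes that were lower. It occurred in 47.2% of the 10871 matched genes among all genes tested and in 30.9% of the 27025 genes of the RefSeq table. Of the 6 AHR battery genes that were lower, 4 held it, while Cyp1a2 and Nqo1 did not. These are matches of letters in a short window and mark no binding site.

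The 6 libraries held 12706490 to 22133677 counts, and 14835 of 55536 genes were tested. Levels are given as CPM, counts scaled to a common library size after TMM normalisation, which are not corrected for gene length, so levels are compared between libraries and not between genes. A gene was called at a Benjamini-Hochberg adjusted p under 0.05 from edgeR's quasi-likelihood test, and log2 differences are dHep_TCDD minus dHSC_TCDD with the standard error (SE) of the fit, with n = 3 mice in each group. The library dHep_TCDD 16 and the library dHSC_TCDD 18 stood apart from the other 4 on the first principal component, at 64.1 and 126 against -41.6 to -11.8. They had 2.20% and 4.25% of counts outside protein-coding genes, against 1.13% to 1.57% in the other 4. Mitochondrially encoded genes took 28.4% of the counts of dHSC_TCDD 18 and 4.52% to 9.85% in the other 5. Where the call of a gene named by rule or from a gene list ended without these 2 libraries, its adjusted p without them is given.

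Ahr itself, on chromosome 12 (chr12:35497974-35535038, GRCm38; ENSMUSG00000019256), had 94.9, 60.8 and 29 CPM in dHep_TCDD livers, against 58.3, 60.8 and 23.2 CPM in dHSC_TCDD livers. The groups overlapped, and the log2 difference of 0.38 ± 0.43 did not pass the test (adjusted p = 0.847). The counts cover the whole gene and not the deleted part, so Ahr checks neither label, and reads shared with an overlapping gene on the opposite strand may be missing from it. Ahr averaged 51.5 ± 6.21 CPM (SD, n = 3) in WT_TCDD livers.

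Loss of AHR in hepatocytes and loss in stellate cells left treated livers that differed in 220 genes, 1.48% of those tested. In dHep_TCDD livers 94 genes were higher (0.634%) and 126 lower (0.849%) than in dHSC_TCDD livers. The median log2 difference was 2.38 among the higher genes and -2.99 among the lower genes, where all genes tested had a median of -0.06. At least 8-fold differences were seen for 29 of the higher and 63 of the lower genes. Of the higher genes 1 had no count in any dHSC_TCDD library and of the lower genes 9 had none in any dHep_TCDD library. With these set at a floor of 3 counts over the group, the medians and the 8-fold counts came out the same. The 3 libraries of each group did not overlap for any of the 220 genes, while among all genes tested 7.19% were without overlap and higher and 7.53% without overlap and lower. Without dHep_TCDD 16 and dHSC_TCDD 18, 107 genes were called (40 higher and 67 lower), of which 101 were among the 220.

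**Figure D1:**
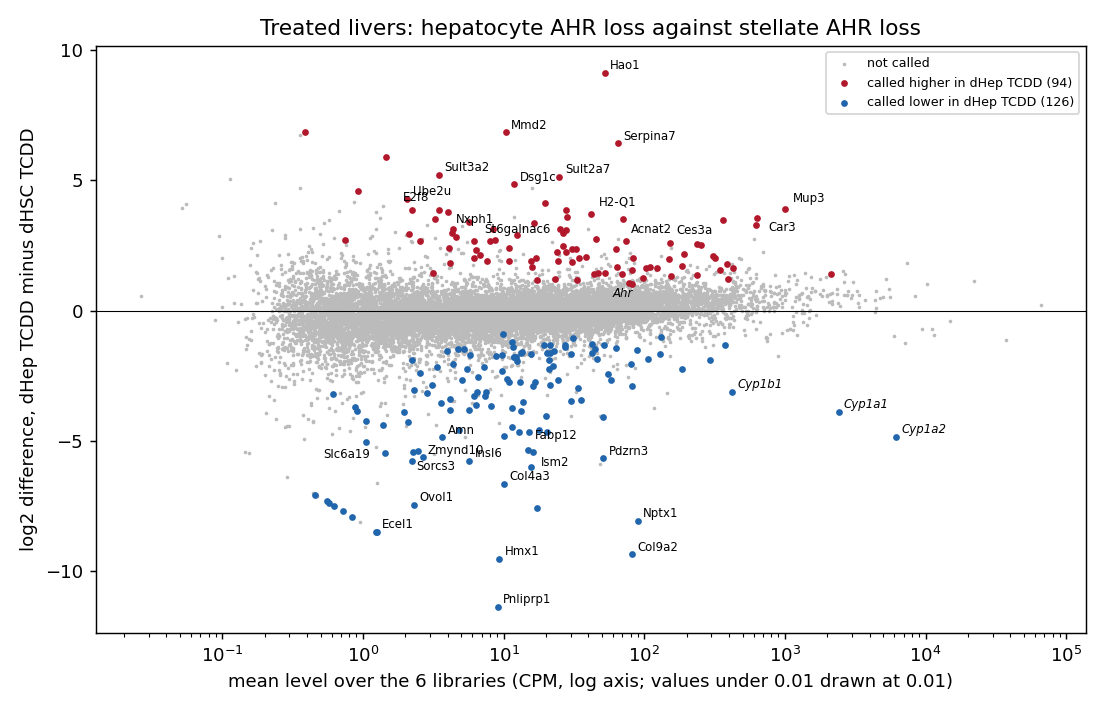
Log2 difference of dHep_TCDD minus dHSC_TCDD livers (vertical axis) against the mean level over the 6 libraries in CPM (horizontal log axis), 1 point per gene tested. Red points are the 94 genes called higher in dHep_TCDD livers and blue points the 126 called lower; Hao1 stands at the top with 9.13 and Pnliprp1 at the bottom with -11.36.

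Canonical AHR target genes were lower in dHep_TCDD livers. Of 15 battery genes tested, 6 were lower and none higher, where 0.849% of all genes tested were lower, and the median log2 difference over the 15 was -1.03. Cyp1a2, a cytochrome that oxidises caffeine and aromatic amines, had 284, 513 and 447 CPM in dHep_TCDD livers, against 13996, 14373 and 7557 CPM in dHSC_TCDD livers. Every dHep_TCDD library was far below every dHSC_TCDD library, a log2 difference of -4.85 ± 0.61 (adjusted p = 0.000618). Cyp1a1, the hydrocarbon-oxidising cytochrome most used as a marker of AHR activity, had 304, 283 and 334 CPM in dHep_TCDD livers, against 5486, 5576 and 2449 CPM in dHSC_TCDD livers. Its 3 dHep_TCDD values lay close together, whereas dHSC_TCDD 18 was lower than the other 2 of its group, and the log2 difference was -3.87 ± 0.74 (adjusted p = 0.0116). Cyp1b1, a family member best known from tissues outside the liver, had 101, 89.6 and 71.9 CPM in dHep_TCDD livers, against 937, 1038 and 291 CPM in dHSC_TCDD livers and a log2 difference of -3.11 ± 0.57 (adjusted p = 0.00897). The groups did not overlap. In dHep_Veh livers Cyp1a1 averaged 63.9 CPM and Cyp1b1 11.9 CPM, below their averages of 307 and 87.4 CPM in dHep_TCDD livers. That difference from vehicle was not tested. The Cyp1a1 and Cyp1b1 calls ended when any 1 of the 3 dHep_TCDD libraries was left out, with adjusted p up to 0.0753 for Cyp1a1 and 0.0573 for Cyp1b1. Without dHep_TCDD 16 and dHSC_TCDD 18 they were 0.0541 and 0.0239.

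Both feedback genes of the pathway were lower as well. Ahrr, the AHR repressor whose promoter is printed above, had 6.15, 4.33 and 4.42 CPM in dHep_TCDD livers, against 66.8, 69.9 and 29.4 CPM in dHSC_TCDD livers (-3.47 ± 0.49, adjusted p = 0.00145). Tiparp, which ADP-ribosylates AHR and limits its signalling, had 14.2, 18.2 and 19.6 CPM in dHep_TCDD livers, against 94.9, 114 and 69.9 CPM in dHSC_TCDD livers (-2.43 ± 0.35, adjusted p = 0.00147). Neither gene overlapped between groups. Nqo1, a quinone reductase shared with the NRF2 pathway, had 21.3, 26.4 and 23.2 CPM in dHep_TCDD livers, against 87.4, 79.3 and 32.5 CPM in dHSC_TCDD livers (-1.49 ± 0.32, adjusted p = 0.0241). The Nqo1 groups did not overlap, but its call ended without any 1 of the 3 dHep_TCDD libraries, without dHSC_TCDD 6 or without dHSC_TCDD 12 (adjusted p up to 0.129), and it was 0.00948 without the 2 libraries that stood apart. Nfe2l2, which encodes NRF2, had 103, 74.8 and 77.6 CPM in dHep_TCDD livers, against 175, 198 and 152 CPM in dHSC_TCDD livers, without overlap but short of the threshold (-1.03 ± 0.28, adjusted p = 0.0917).

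The other battery members tested did not pass. Aldh1a7, an aldehyde dehydrogenase, had 293, 331 and 157 CPM in dHep_TCDD livers, against 222, 239 and 57.5 CPM in dHSC_TCDD livers, with overlap. Gsta1, a glutathione transferase with near-identical relatives, had 6.66, 6.15 and 5.38 CPM in dHep_TCDD livers, against 9.44, 12.5 and 13.4 CPM in dHSC_TCDD livers, without overlap (-0.96 ± 0.46, adjusted p = 0.509). Ugt1a6a had no count in any of the 6 libraries and shares its locus with the other Ugt1a genes, and Lrp2 had 29 counts in all, so neither was tested. None of the 9 genes that encode AHR partners and coregulators was called, and none of 17 NRF2 targets, a list without Nqo1. Of all genes tested 1.48% were called. Among the 17 NRF2 targets 13 estimates were negative. Of these targets 3 were without overlap and lower, where 7.53% of all genes tested were. With 3 libraries a group these lists do not show that the groups were alike.

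The treated control livers show which side of the difference was nearer to mice with a floxed Ahr gene and TCDD. Cyp1a1 was at 5873, 8328 and 5089.61 CPM in WT_TCDD livers, Cyp1a2 at 14202, 20113 and 13876 CPM and Cyp1b1 at 1397, 1037 and 1223 CPM. All 9 values were on the dHSC_TCDD side of the midpoint between the 2 deleted groups. Taken on a log2 scale with 0.05 CPM added, all 3 WT_TCDD libraries were nearer to the dHSC_TCDD mean for 69 of the 94 genes higher in dHep_TCDD livers and for 111 of the 126 genes lower there. For 1 of the 94 and 0 of the 126 no WT_TCDD library was nearer to it. All 3 WT_Veh libraries were nearer to the dHep_TCDD mean for 76 of the 94 and for 106 of the 126. The WT libraries were not used to choose the genes, other than through the estimate of spread, and these counts carry no test.

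**Figure D2:**
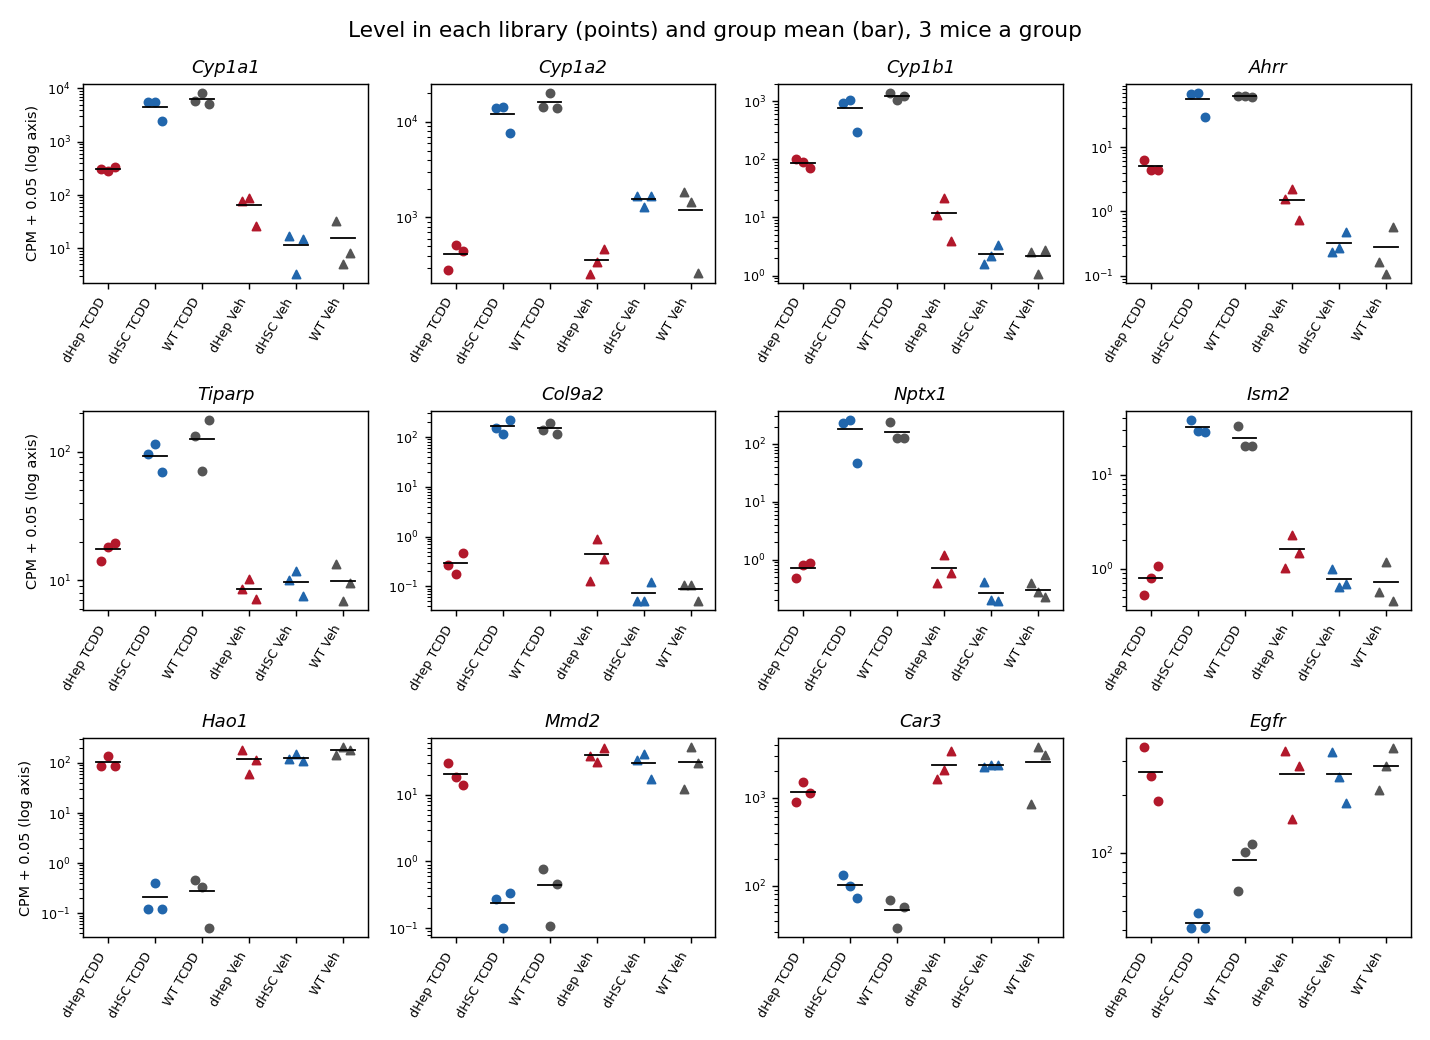
Level of selected genes in each of the 18 libraries in CPM on log axes, 1 point per mouse, for the treated groups dHep_TCDD, dHSC_TCDD and WT_TCDD and then the same genotypes with vehicle. For Cyp1a1 the 3 dHep_TCDD livers sit between 283 and 334 CPM, below every dHSC_TCDD and WT_TCDD liver.

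The largest difference among the genes that were higher was that of Hao1, on chromosome 2 (chr2:134497361-134554368, GRCm38; ENSMUSG00000027261). Hao1 encodes glycolate oxidase, the peroxisomal enzyme of hepatocytes that turns glycolate into glyoxylate. It had 88.1, 140.12 and 86.5 CPM in dHep_TCDD livers, against 0.0738, 0.346 and 0.0716 CPM in dHSC_TCDD livers. Every dHSC_TCDD library was close to 0, and the log2 difference was 9.13 ± 0.79 (adjusted p = 1.4e-05). In WT_TCDD livers Hao1 stood at 0.412, 0.285 and 0 CPM, and in vehicle livers it averaged 120.00 ± 60.9 CPM in dHep_Veh, 128 ± 24.2 CPM in dHSC_Veh and 179 ± 32.1 CPM in WT_Veh (SD, n = 3 each). Among 15 peroxisomal and glyoxylate enzymes tested, Hao1 was the only one called, while 14 of the 15 had a positive log2 difference and their median was 0.36. Of all genes tested 0.634% were called higher, and the median log2 difference of all genes tested was -0.06.

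Some other genes of hepatocyte products were also higher in dHep_TCDD livers. Serpina7, thyroxine-binding globulin, had 222, 43.2 and 121 CPM in dHep_TCDD livers, against 2.36, 1.83 and 0.287 CPM in dHSC_TCDD livers (6.42 ± 0.75, adjusted p = 0.000302). Mup3, a major urinary protein of the lipocalin family, had 1230.50, 1864 and 2572 CPM in dHep_TCDD livers, against 174, 169.75 and 34.1 CPM in dHSC_TCDD livers (3.91 ± 0.66, adjusted p = 0.00488). Neither overlapped between groups, although the Serpina7 values of the dHep_TCDD livers spread widely and dHSC_TCDD 18 was lowest for both genes. In vehicle livers Mup3 averaged 3097 CPM in dHep_Veh and 4427 CPM in dHSC_Veh. Mup3 was the only one called of 18 major urinary protein genes tested, where 1.48% of all genes tested were called. Of the 18, 10 had a negative estimate, with a median of -0.37. Without overlap were 4 that were lower and 1 that was higher, where 7.53% and 7.19% of all genes tested were. Near-identical copies make the split of reads among the 18 uncertain. Of 21 genes of hepatocyte secreted proteins tested none was called, where 1.48% of all genes tested were, while 18 had a positive estimate and the median was 0.51. Ces3a, a carboxylesterase with close paralogs, had 509, 786 and 719.90 CPM in dHep_TCDD livers, against 40.5, 75.9 and 63.6 CPM in dHSC_TCDD livers (3.48 ± 0.49, adjusted p = 0.00145). Acnat2, of the acyl-CoA amino acid N-acyltransferase family, had 262, 44.4 and 85.1 CPM in dHep_TCDD livers, against 7.75, 20.7 and 5.52 CPM in dHSC_TCDD livers (3.52 ± 0.80, adjusted p = 0.0363). The Acnat2 call ended without dHep_TCDD 4, dHep_TCDD 16, dHSC_TCDD 6 or dHSC_TCDD 18 (adjusted p up to 0.196) and was 0.17 without the 2 libraries that stood apart.

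Cytosolic sulfotransferases, which add sulfate to steroids, bile acids and xenobiotics, were higher in dHep_TCDD than in dHSC_TCDD livers for 4 of 13 members tested, and none was lower. The background of higher calls was 0.634%, and the median log2 difference over the 13 was 0.46. Sult2a7 had 41.2, 89.8 and 14.6 CPM in dHep_TCDD livers, against 2.14, 1.33 and 0.645 CPM in dHSC_TCDD livers (5.14 ± 0.76, adjusted p = 0.002). In vehicle livers Sult2a7 averaged 150 CPM in dHep_Veh and 304 CPM in dHSC_Veh. Sult2a8, which sulfates bile acids in mouse liver, had 266, 606 and 427 CPM in dHep_TCDD livers, against 80.8, 84.8 and 59.5 CPM in dHSC_TCDD livers (2.53 ± 0.38, adjusted p = 0.00237). Both were without overlap, and the Sult2a members are near-identical copies, so the split of reads among them is uncertain. Sult1a1, a phenol sulfotransferase, had 574, 709 and 510.46 CPM in dHep_TCDD livers, against 226, 186 and 109 CPM in dHSC_TCDD livers (1.78 ± 0.31, adjusted p = 0.0068). Sult3a2 had 11.8, 7.16 and 1.43 CPM in dHep_TCDD livers, against 0.0738, 0.395 and 0 CPM in dHSC_TCDD livers (5.20 ± 1.09, adjusted p = 0.0215). The Sult3a2 call ended without dHep_TCDD 4, dHep_TCDD 10, dHSC_TCDD 6 or dHSC_TCDD 18, with adjusted p up to 0.102. Its neighbour Sult3a1 had 115, 157 and 66 CPM in dHep_TCDD livers, against 2.43, 47.2 and 1.07 CPM in dHSC_TCDD livers, without overlap and not called (adjusted p = 0.28). Sult2a1, the female-predominant member, had 247, 388 and 67.8 CPM in dHep_TCDD livers, against 279.98, 149 and 81.8 CPM in dHSC_TCDD livers, with overlap (adjusted p = 0.89). The 4 calls were also made without the 2 libraries that stood apart, leaving out 1 library at a time gave 3 to 5, and 0 were made when only the 6 compared libraries were fitted, with adjusted p from 0.0502 to 0.135.

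Carbonic anhydrases, which hydrate carbon dioxide, were higher in dHep_TCDD than in dHSC_TCDD livers for 3 of 6 members tested, where 0.634% of all genes tested were higher, with a median log2 difference of 1.78 over the 6. Car3, an abundant cytosolic form of hepatocytes, had 889, 1506 and 1132 CPM in dHep_TCDD livers, against 131, 100.00 and 72.1 CPM in dHSC_TCDD livers (3.54 ± 0.51, adjusted p = 0.00147). Car14, a membrane form, had 21.8, 16.9 and 16.7 CPM in dHep_TCDD livers, against 3.47, 2.82 and 4.30 CPM in dHSC_TCDD livers (2.39 ± 0.43, adjusted p = 0.00812), and Car1, best known from red cells, had 5.63, 11.5 and 6.40 CPM in dHep_TCDD livers, against 0.590, 1.29 and 0.788 CPM in dHSC_TCDD livers (3.11 ± 0.51, adjusted p = 0.00475). None of the 3 overlapped between groups, and only the Car14 call ended on leaving out 1 library, dHSC_TCDD 12 (adjusted p = 0.0517). In vehicle livers Car3 averaged 2377 CPM in dHep_Veh and 2337 CPM in dHSC_Veh. The summed level of erythroid marker genes ranged from 189 to 408 CPM in dHep_TCDD livers and from 162 to 323 CPM in dHSC_TCDD livers, and its part in the Car1 result was not tested. Car8 had 118, 191 and 118 CPM in dHep_TCDD livers, against 82.9, 73.1 and 34.6 CPM in dHSC_TCDD livers, without overlap and not called (adjusted p = 0.0917).

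The remaining genes with the largest log2 differences among those higher in dHep_TCDD livers have no single role. Mmd2, a multi-pass membrane protein of the PAQR family, had 29.9, 18.1 and 13.8 CPM in dHep_TCDD livers, against 0.221, 0.0494 and 0.287 CPM in dHSC_TCDD livers (6.84 ± 0.79, adjusted p = 0.000297). Dsg1c, a desmosomal cadherin, had 10.9, 45.3 and 13 CPM in dHep_TCDD livers, against 0.738, 0.989 and 0.645 CPM in dHSC_TCDD livers (4.84 ± 0.79, adjusted p = 0.00439). In both genes every dHSC_TCDD liver was below 1 CPM. E2f8, an atypical E2F repressor that takes part in hepatocyte polyploidy, had 10.3, 4.39 and 4.76 CPM in dHep_TCDD livers, against 0.516, 0.445 and 0.358 CPM in dHSC_TCDD livers (3.87 ± 0.60, adjusted p = 0.00292). St6galnac6, a sialyltransferase, had 83.3, 42.1 and 32.1 CPM in dHep_TCDD livers, against 5.16, 4.45 and 3.30 CPM in dHSC_TCDD livers (3.61 ± 0.52, adjusted p = 0.00147). H2-Q1, a class I MHC gene with close copies, had 97.8, 53.9 and 83.2 CPM in dHep_TCDD livers, against 12.2, 3.71 and 2.15 CPM in dHSC_TCDD livers (3.70 ± 0.67, adjusted p = 0.0086). The groups were apart for these 3 genes, but the H2-Q1 call ended without dHSC_TCDD 12 (adjusted p = 0.0552) and was 0.0684 without the 2 libraries that stood apart. Nxph1, a secreted ligand of neurexins, had 1.82, 13.2 and 7.62 CPM in dHep_TCDD livers, against 0.590, 0.593 and 0.430 CPM in dHSC_TCDD livers (3.78 ± 0.69, adjusted p = 0.00883). Ube2u, of the ubiquitin-conjugating enzyme family, had 4.20, 2.20 and 5.44 CPM in dHep_TCDD livers, against 0.221, 0.0989 and 0.287 CPM in dHSC_TCDD livers (4.29 ± 0.83, adjusted p = 0.0126). Without the 2 libraries that stood apart the adjusted p was 0.0953 for Nxph1 and 0.0964 for Ube2u, and the Ube2u call also ended without dHSC_TCDD 6 or dHSC_TCDD 12 (adjusted p up to 0.0861). E2f8, Nxph1, Ube2u, Acnat2 and Ces3a each overlap another annotated gene, which can cost them reads.

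The 15 genes with the largest log2 differences among those lower in dHep_TCDD livers were under 3 CPM in each library of that group. Most were low in vehicle livers as well. Pdzrn3 averaged 12.2 CPM in dHep_Veh and 2.32 CPM in dHSC_Veh livers. For the others no vehicle group averaged over 1.57 CPM. Col9a2, on chromosome 4 (chr4:121039385-121055322, GRCm38; ENSMUSG00000028626), encodes a chain of type IX collagen, best known from cartilage. It had 0.216, 0.126 and 0.408 CPM in dHep_TCDD livers, against 153, 117 and 222 CPM in dHSC_TCDD livers. The difference of -9.35 ± 0.72 on the log2 scale had the smallest adjusted p of all genes (9.2e-06). In WT_TCDD livers Col9a2 stood at 138, 191 and 118 CPM, and no vehicle group averaged over 0.403 CPM. Nptx1, a neuronal pentraxin, had 0.433, 0.753 and 0.817 CPM in dHep_TCDD livers, against 229, 260.41 and 46.1 CPM in dHSC_TCDD livers (-8.08 ± 0.71, adjusted p = 1.4e-05). Pnliprp1, a relative of pancreatic lipase, had no count in any dHep_TCDD library, against 5.24, 27.7 and 21.6 CPM in dHSC_TCDD livers. Against a floor of 3 counts over the group, Pnliprp1 was at least 350-fold lower in dHep_TCDD livers, and the fitted -11.36 depends on a prior count (adjusted p = 9.78e-05). The pancreatic gene Pnlip had 1 count in the 6 libraries together and Prss2 and Try4 had none. The part of pancreatic tissue in the Pnliprp1 result was not tested.

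Transcription factors and secreted proteins best known from other tissues were among these. Hmx1, a homeobox factor, had 0.0433, 0 and 0 CPM in dHep_TCDD livers, against 18.1, 18.1 and 19.6 CPM in dHSC_TCDD livers, a ratio of 998 in the counts of dHSC_TCDD to dHep_TCDD with an exact 95% binomial interval of 179 to 39475 that covers counting error only (adjusted p = 6.39e-05). Ovol1, a zinc finger factor of epithelia, had 0, 0 and 0.0680 CPM in dHep_TCDD livers, against 5.53, 6.48 and 1.72 CPM in dHSC_TCDD livers, a ratio of 259 (46.0 to 10269; adjusted p = 0.00328). Both had 1 count in all in dHep_TCDD livers. Ecel1, a membrane metalloprotease, had no count in dHep_TCDD livers and 1.18, 5.19 and 1.07 CPM in dHSC_TCDD livers, at least 51.0-fold lower in dHep_TCDD. The Ecel1 call (adjusted p = 0.0199) ended without any 1 of the dHep_TCDD libraries and was 0.0543 without the 2 libraries that stood apart. Pdzrn3, an E3 ubiquitin ligase, had 1.99, 1.26 and 2.65 CPM in dHep_TCDD livers, against 71.2, 52.3 and 179 CPM in dHSC_TCDD livers (-5.67 ± 0.88, adjusted p = 0.00286). Ism2, a secreted isthmin, had 0.476, 0.753 and 1.02 CPM in dHep_TCDD livers, against 38.1, 29.1 and 28.2 CPM in dHSC_TCDD livers (-5.41 ± 0.47, adjusted p = 1.4e-05), with a narrow spread in both groups. Insl6, an insulin-like peptide best known from testis, had 0.303, 0.0628 and 0.204 CPM in dHep_TCDD livers, against 14.6, 13 and 5.95 CPM in dHSC_TCDD livers (-5.77 ± 0.73, adjusted p = 0.00067). Hmx1, Ovol1, Col4a3, Pdzrn3, Slc6a19, Sorcs3 and Zmynd10 overlap other annotated genes, so reads may be missing from them.

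The other 5 include carriers and receptors. Fabp12, of the fatty acid binding protein family, had 0.606, 0.502 and 1.02 CPM in dHep_TCDD livers, against 14.2, 28.6 and 44 CPM in dHSC_TCDD livers (-5.35 ± 0.62, adjusted p = 0.000297). Amn, the membrane partner of cubilin, had 0.260, 0.377 and 0.0680 CPM in dHep_TCDD livers, against 4.43, 9.84 and 7.09 CPM in dHSC_TCDD livers (-4.86 ± 0.80, adjusted p = 0.00452). Both stayed below 1.1 CPM in every dHep_TCDD library. Slc6a19, a neutral amino acid transporter of gut and kidney, had 0.0433, 0.0628 and 0.0680 CPM in dHep_TCDD livers, against 4.35, 2.62 and 1.43 CPM in dHSC_TCDD livers, a ratio of 49.5 (16.6 to 243; adjusted p = 0.00364) with 3 counts in all in dHep_TCDD livers. Sorcs3, a sorting receptor, had 0.0433, 0.251 and 0 CPM in dHep_TCDD livers, against 8.48, 4.0 and 0.860 CPM in dHSC_TCDD livers (-5.44 ± 1.19, adjusted p = 0.0289). Zmynd10, which helps assemble ciliary dynein, had 0.130, 0.188 and 0 CPM in dHep_TCDD livers, against 3.32, 3.36 and 7.81 CPM in dHSC_TCDD livers (-5.38 ± 1.0, adjusted p = 0.0101). The Sorcs3 call ended on leaving out any 1 library other than dHSC_TCDD 18, with adjusted p up to 0.168. The Zmynd10 call ended without dHep_TCDD 4 (adjusted p = 0.0633), and without the 2 libraries that stood apart the adjusted p was 0.055 for Sorcs3 and 0.101 for Zmynd10.

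The genotypes were next compared without TCDD. Between dHep_Veh and dHSC_Veh livers edgeR called 0 of 14835 genes (0%), the smallest adjusted p was 0.316, and 491 genes had an unadjusted p under 0.05, against 1508 between the treated groups. DESeq2 called 7. Over the 94 genes higher in dHep_TCDD livers the median log2 difference in vehicle was 0.00, and over the 126 lower genes it was 0.18. The treated difference itself was tested against the vehicle difference, and 64 genes differed (0.431%), 23 with a more positive contrast under TCDD (0.155%) and 41 with a more negative one (0.276%). Both comparisons use the same dHep_TCDD and dHSC_TCDD libraries. By that test the contrast differed for Hao1 (adjusted p = 9.24e-05), Col9a2 (6.51e-05) and Ahrr (0.00163), and not for Cyp1a2 (0.174) or Nqo1 (0.289). Cyp1a2 had 256, 344 and 473 CPM in dHep_Veh livers, against 1665, 1287 and 1693 CPM in dHSC_Veh livers. The vehicle groups of Cyp1a2 did not overlap, with an adjusted p of 0.928. Cyp1a1 had 78.9, 86.9 and 25.9 CPM in dHep_Veh livers, against 16.7, 3.24 and 15.1 CPM in dHSC_Veh livers, with the opposite order and an adjusted p of 0.928.

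**Figure D3:**
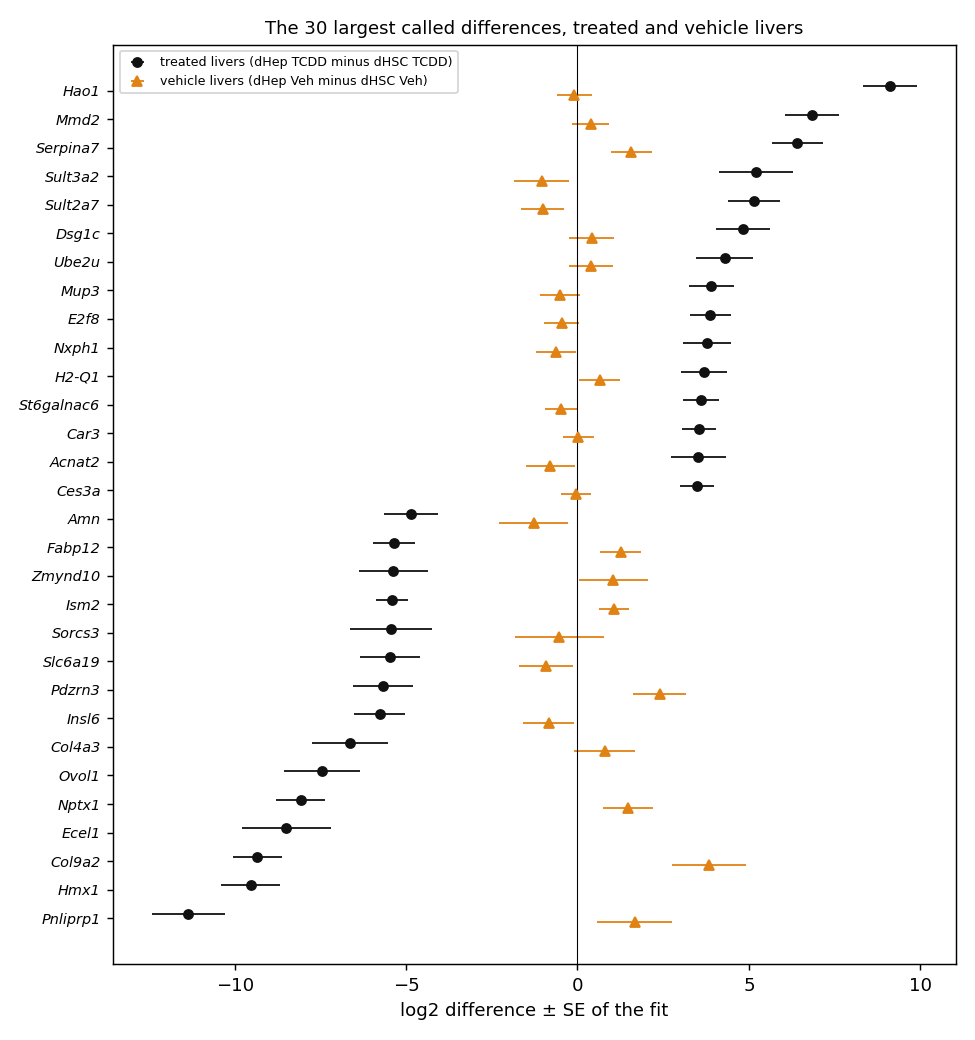
Log2 difference ± SE of the fit for the 15 genes called higher in dHep_TCDD livers with the largest differences and the 15 called lower with the largest, dHep_TCDD minus dHSC_TCDD (black circles) and dHep_Veh minus dHSC_Veh (orange triangles; none is drawn where both vehicle groups have at most 3 counts). Hao1 reaches 9.13 in treated livers and stays near 0 in vehicle livers.

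Stellate cell and myofibroblast genes, the cells that lost AHR in dHSC mice and the cells named in the study's title, gave no calls. Of all genes tested 1.48% were called, so lists this short can hold none. Of 17 markers of quiescent stellate cells tested none was called, and their median log2 difference was 0.00. Reln, a glycoprotein of stellate cells, had the lowest estimate, with 53.4, 45.1 and 46.2 CPM in dHep_TCDD livers, against 101, 133 and 66 CPM in dHSC_TCDD livers, without overlap (-1.05 ± 0.29, adjusted p = 0.105). Pth1r, the parathyroid hormone receptor, had the highest, with 14.8, 18.5 and 21.3 CPM in dHep_TCDD livers, against 11.4, 9.49 and 16 CPM in dHSC_TCDD livers, with overlap. The summed level of the list was 545 to 705 CPM in dHep_TCDD livers and 574 to 608 CPM in dHSC_TCDD livers. Lrat, Tcf21 and Gfap, defining genes of the list, had no count in any of the 6 libraries. Des and Cygb, also defining, were counted in all 6, with 9.61, 10.1 and 27.6 CPM in dHep_TCDD livers, against 9.15, 6.18 and 25.3 CPM in dHSC_TCDD livers for Des.

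Of 20 myofibroblast genes tested none was called, with a median of 0.07. Acta2, smooth muscle actin, had 13.8, 3.26 and 28.4 CPM in dHep_TCDD livers, against 4.87, 3.56 and 11.3 CPM in dHSC_TCDD livers, and the groups overlapped (1.20 ± 1.10, adjusted p = 0.786). Tpm2, a tropomyosin, had 10.8, 11.2 and 24.5 CPM in dHep_TCDD livers, against 3.47, 2.42 and 3.73 CPM in dHSC_TCDD livers, without overlap and with a wide error (2.28 ± 1.06, adjusted p = 0.484). Timp1 had no count in any of the 6 libraries. The summed level was 356 to 556 CPM in dHep_TCDD livers and 375 to 439 CPM in dHSC_TCDD livers. Of 9 fibrillar collagen genes tested none was called, and their median was -0.35, or -0.06 without dHSC_TCDD 18. Col1a1, the main chain of type I collagen, had 27.4, 25.4 and 24.8 CPM in dHep_TCDD livers, against 41.5, 31.9 and 40.3 CPM in dHSC_TCDD livers, without overlap (-0.55 ± 0.52, adjusted p = 0.793), and averaged 71.6 ± 27.3 CPM (SD, n = 3) in WT_TCDD livers. Col3a1 had 64.9, 62.4 and 89.8 CPM in dHep_TCDD livers, against 84.2, 71.5 and 98.7 CPM in dHSC_TCDD livers, with overlap. For Col5a3 the dHSC_TCDD 18 value of 59.3 CPM stood well above the other 5 libraries, which held 6.93 to 14.8 CPM. None of 25 matrix glycoproteins and crosslinkers and none of 20 genes of TGF-beta and PDGF signalling were called. With an SE of 1.10 on the log2 scale for Acta2, a moderate difference of that gene was not detectable.

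Of 16 further collagens tested 2 were lower, where 0.849% of all genes tested were. Col4a3, a basement membrane chain of kidney and lung, had 0.0866, 0.377 and 0.136 CPM in dHep_TCDD livers, against 16.8, 6.67 and 36.5 CPM in dHSC_TCDD livers (-6.65 ± 1.11, adjusted p = 0.00488). Col4a4, encoded head to head with Col4a3, had 0.563, 1.51 and 2.04 CPM in dHep_TCDD livers, against 15.9, 7.07 and 17.1 CPM in dHSC_TCDD livers (-3.30 ± 0.65, adjusted p = 0.0142). The groups did not overlap for either, and dHSC_TCDD 18 was highest for both. Neither was called without the 2 libraries that stood apart, at adjusted p of 0.0621 for Col4a3 and 0.069 for Col4a4, and the Col4a4 call also ended without dHep_TCDD 4 or dHep_TCDD 10. The ubiquitous chains Col4a1 and Col4a2 were not called. Mmp12, a macrophage elastase, had 1.64, 2.01 and 1.77 CPM in dHep_TCDD livers, against 8.56, 8.75 and 3.44 CPM in dHSC_TCDD livers, without overlap and not called (-1.93 ± 0.56, adjusted p = 0.13).

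**Figure D4:**
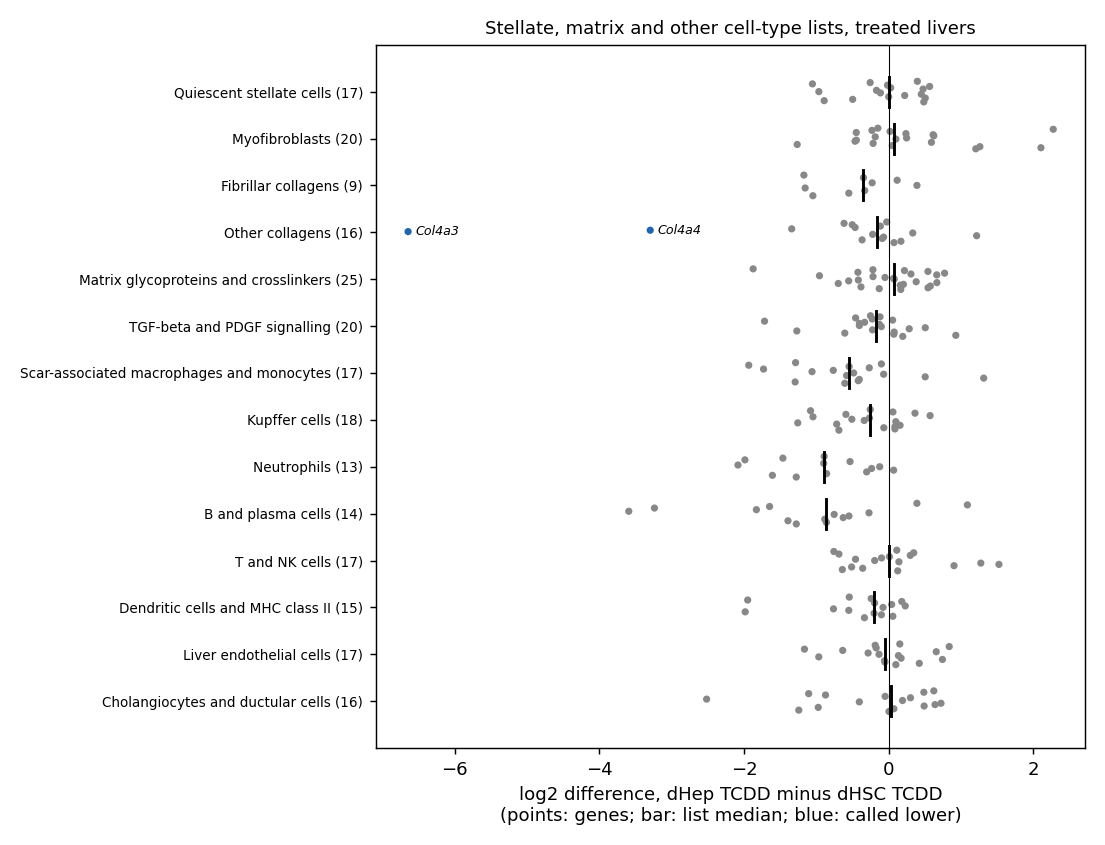
Log2 difference of dHep_TCDD minus dHSC_TCDD livers for each gene tested (points) of the stellate, matrix and other cell-type lists, with the list median as a bar and the number of genes tested in brackets. Blue points are genes called lower in dHep_TCDD livers; Col4a3 and Col4a4 are the 2 called, and the medians of the stellate and myofibroblast lists lie at 0.00 and 0.07.

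Markers of inflammatory and other liver cells gave no calls either, where 1.48% of all genes tested were called. Scar-associated macrophage and monocyte genes had a median of -0.55 over 17 tested, or -0.23 without dHSC_TCDD 18, and their summed level was 246 to 509 CPM in dHep_TCDD livers and 450 to 839 CPM in dHSC_TCDD livers. Neutrophil genes had a median of -0.89 over 13 tested and a summed level of 29.3 to 65.5 CPM in dHep_TCDD livers and 26.2 to 215 CPM in dHSC_TCDD livers. Their median was 0.40 without dHSC_TCDD 18 and -0.26 without both libraries that stood apart. For S100a9, a neutrophil calprotectin subunit, the highest value was that of dHSC_TCDD 18, with 3.98, 5.78 and 12.1 CPM in dHep_TCDD livers, against 5.31, 4.05 and 50.9 CPM in dHSC_TCDD livers. Over 14 genes of B and plasma cells tested the median was -0.87, and Jchain, the joining chain of secreted antibodies, had 1.95, 2.20 and 1.36 CPM in dHep_TCDD livers, against 4.72, 2.32 and 45.3 CPM in dHSC_TCDD livers, again highest in dHSC_TCDD 18. Without that library the median over the 14 was -0.01. The summed level of the B and plasma cell list was 430 to 826 CPM in dHep_TCDD livers and 464 to 496 CPM in dHSC_TCDD livers. Kupffer cell, T and NK cell, dendritic cell, endothelial and cholangiocyte lists had medians from -0.26 to 0.04. None of 16 chemokines, 18 cytokines and adhesion molecules, 23 interferon-stimulated genes and 26 cell cycle genes tested were called. The part of these cells in the differences above was not tested.

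Of 21 genes of lipid uptake, droplets and export tested 2 were lower, where 0.849% of all genes tested were. They include Pnliprp1, described above. The other metabolic lists named here held at most 1 call each, where 1.48% of all genes tested were called. Of 20 genes of cholesterol synthesis none was called, although all 20 estimates were positive and their median log2 difference was 1.09. Of these, 9 were without overlap and higher in dHep_TCDD livers, where 7.19% of all genes tested were. Cyp51, lanosterol demethylase, came closest with 328, 726 and 271 CPM in dHep_TCDD livers, against 186, 152 and 64.3 CPM in dHSC_TCDD livers (1.72 ± 0.45, adjusted p = 0.0786). Of 23 genes of fatty acid and triglyceride synthesis none was called, with a median of 0.70. Fasn, fatty acid synthase, had 805, 491 and 666 CPM in dHep_TCDD livers, against 290.31, 202 and 82.6 CPM in dHSC_TCDD livers, without overlap (1.77 ± 0.43, adjusted p = 0.0535). Scd1, stearoyl-CoA desaturase, had 7329, 1596 and 3765 CPM in dHep_TCDD livers, against 18172, 9323 and 2424 CPM in dHSC_TCDD livers, with wide spread in both groups (-1.24 ± 0.78, adjusted p = 0.655). Khk, ketohexokinase, which starts fructose breakdown, was higher with 579.89, 435 and 539 CPM in dHep_TCDD livers, against 213, 169.55 and 141 CPM in dHSC_TCDD livers (1.57 ± 0.29, adjusted p = 0.00883), and it was the only call among 23 genes of glucose and glycogen metabolism. Its adjusted p was 0.0967 without the 2 libraries that stood apart. Crat, carnitine acetyltransferase, was higher with 64.8, 53 and 35 CPM in dHep_TCDD livers, against 7.08, 12.1 and 10.7 CPM in dHSC_TCDD livers (2.35 ± 0.34, adjusted p = 0.00159), the only call among 23 genes of fatty acid oxidation. Glul, glutamine synthetase of the pericentral hepatocytes, had 3143, 3139 and 2928 CPM in dHep_TCDD livers, against 1471, 1284 and 767 CPM in dHSC_TCDD livers (1.39 ± 0.30, adjusted p = 0.0248). The Glul call ended on leaving out any 1 library other than dHSC_TCDD 6 (adjusted p up to 0.0854), and its adjusted p was 0.133 without the 2 libraries that stood apart.

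Signals and receptors of hepatocytes differed in both directions. Egfr, the epidermal growth factor receptor, had 353, 251 and 185 CPM in dHep_TCDD livers, against 40.7, 48.9 and 40.6 CPM in dHSC_TCDD livers (2.60 ± 0.37, adjusted p = 0.00145), and its call held in each fit that left out 1 library. Igfbp2, an insulin-like growth factor binding protein, had 533, 1251 and 1613 CPM in dHep_TCDD livers, against 45.7, 131 and 172 CPM in dHSC_TCDD livers (3.28 ± 0.76, adjusted p = 0.0392). The groups of both genes were apart, yet the Igfbp2 call ended on leaving out any 1 of the 6 libraries (adjusted p up to 0.164) and without the 2 libraries that stood apart (0.16). Both belong to a list of 17 growth hormone and STAT5 genes, of which no other was called. Among all genes tested 0.634% were higher. Fgf21, a fasting hormone of the liver, was lower with 0.649, 1.57 and 1.225 CPM in dHep_TCDD livers, against 8.56, 11.4 and 13.7 CPM in dHSC_TCDD livers (-3.29 ± 0.76, adjusted p = 0.0396). Lect2, a hepatokine, was higher with 239.53, 335 and 369 CPM in dHep_TCDD livers, against 98.9, 64.9 and 45.9 CPM in dHSC_TCDD livers (2.17 ± 0.40, adjusted p = 0.00893), and so was Lepr, the leptin receptor, with 13.3, 6.15 and 13.8 CPM in dHep_TCDD livers, against 2.95, 2.13 and 2.51 CPM in dHSC_TCDD livers (2.13 ± 0.49, adjusted p = 0.0398). The Fgf21 call ended on leaving out any 1 library, the Lepr call on leaving out any 1 other than dHep_TCDD 10, and the Lect2 call without dHSC_TCDD 12. Their adjusted p without the 2 libraries that stood apart were 0.223 for Fgf21, 0.116 for Lect2 and 0.271 for Lepr.

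Some secreted defence proteins and transporters were called, where 0.634% of all genes tested were higher and 0.849% lower. Of 20 acute phase genes tested 2 were higher, Apcs, serum amyloid P, with 106, 137 and 159.90 CPM in dHep_TCDD livers, against 48.6, 27.3 and 23.7 CPM in dHSC_TCDD livers (2.02 ± 0.41, adjusted p = 0.0167), and Lbp, lipopolysaccharide binding protein, with 141, 118 and 152 CPM in dHep_TCDD livers, against 45.8, 40.8 and 87.2 CPM in dHSC_TCDD livers (1.24 ± 0.28, adjusted p = 0.0392). C9, the last complement component of the membrane attack complex, had 365, 313 and 357 CPM in dHep_TCDD livers, against 152, 148 and 98.4 CPM in dHSC_TCDD livers (1.38 ± 0.30, adjusted p = 0.0252). The C9 call ended on leaving out any 1 library and the Apcs call without dHep_TCDD 10, dHep_TCDD 16, dHSC_TCDD 12 or dHSC_TCDD 18, while of these fits the Lbp call was made only in the one without dHSC_TCDD 18. Without the 2 libraries that stood apart the adjusted p was 0.196 for C9, 0.186 for Apcs and 0.0155 for Lbp. Of 24 transporters tested Slc16a10, an aromatic amino acid transporter, was higher with 194, 234 and 134 CPM in dHep_TCDD livers, against 81.2, 56.1 and 45.1 CPM in dHSC_TCDD livers (1.62 ± 0.27, adjusted p = 0.00488). Slc46a3, a lysosomal transporter, was lower with 27.8, 73.8 and 36.3 CPM in dHep_TCDD livers, against 192, 189.87 and 123 CPM in dHSC_TCDD livers (-1.87 ± 0.40, adjusted p = 0.0232). The Slc46a3 call ended without dHep_TCDD 4, dHep_TCDD 16, dHSC_TCDD 6 or dHSC_TCDD 12, with adjusted p up to 0.136, and without the 2 libraries that stood apart (0.107). Of 20 genes of the unfolded protein and integrated stress responses Sdf2l1, an endoplasmic reticulum chaperone partner, was the only call, with 96.8, 40.2 and 102 CPM in dHep_TCDD livers, against 9.74, 14.8 and 10.6 CPM in dHSC_TCDD livers (2.76 ± 0.57, adjusted p = 0.0194). Of the fits that left out 1 library, only the one without dHep_TCDD 10 made that call, and its adjusted p was 0.181 without the 2 libraries that stood apart.

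Some members of sex-biased and drug-metabolising lists were called too, where 0.634% of all genes tested were higher and 0.849% lower. Of 17 female-biased liver genes tested Slc22a26, an organic anion transporter, was higher with 234, 356 and 128 CPM in dHep_TCDD livers, against 73.8, 54.5 and 53 CPM in dHSC_TCDD livers (1.98 ± 0.34, adjusted p = 0.00552). Ntrk2, the BDNF receptor, was higher with 30.03, 20.5 and 38.9 CPM in dHep_TCDD livers, against 6.12, 1.78 and 0.860 CPM in dHSC_TCDD livers (3.36 ± 0.69, adjusted p = 0.0201). The groups were apart for both, and the Ntrk2 call ended without dHep_TCDD 4, dHep_TCDD 16, dHSC_TCDD 12 or dHSC_TCDD 18 (adjusted p up to 0.107) and without the 2 libraries that stood apart (0.158). Of 26 CYP2 genes tested Cyp2g1 was higher with 6.19, 14.3 and 11.1 CPM in dHep_TCDD livers, against 3.47, 1.93 and 0.931 CPM in dHSC_TCDD livers (2.32 ± 0.49, adjusted p = 0.0226), and of 18 CYP3A and CYP4 genes Cyp3a59 was higher with 88.3, 113 and 101 CPM in dHep_TCDD livers, against 37.8, 36.2 and 42.1 CPM in dHSC_TCDD livers (1.38 ± 0.32, adjusted p = 0.043). The Cyp3a59 call ended on leaving out any 1 library and the Cyp2g1 call without dHep_TCDD 10, dHep_TCDD 16, dHSC_TCDD 12 or dHSC_TCDD 18. Without the 2 libraries that stood apart the adjusted p was 0.169 for Cyp3a59 and 0.165 for Cyp2g1, and close paralogs make both uncertain. Of 20 hepatocyte transcription factors tested Irx1, an Iroquois homeobox factor, was the only call, with 1.43, 2.32 and 1.56 CPM in dHep_TCDD livers, against 0.221, 0 and 0 CPM in dHSC_TCDD livers (4.60 ± 0.86, adjusted p = 0.0101), and it ended without dHSC_TCDD 12 (adjusted p = 0.0511) and without the 2 libraries that stood apart (0.0599). None of 16 glutathione transferases was called, but 13 of the 16 estimates were positive and 6 were without overlap and higher, where 7.19% of all genes tested were. Gstm6 had the highest of these estimates, 125, 151 and 198 CPM in dHep_TCDD livers, against 75.6, 57.1 and 49.4 CPM in dHSC_TCDD livers (1.38 ± 0.40, adjusted p = 0.132). None of 10 UDP-glucuronosyltransferases, 20 genes of bile acid synthesis and transport, 23 of the urea cycle and amino acid catabolism and 17 clock genes tested were called.

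**Figure D5:**
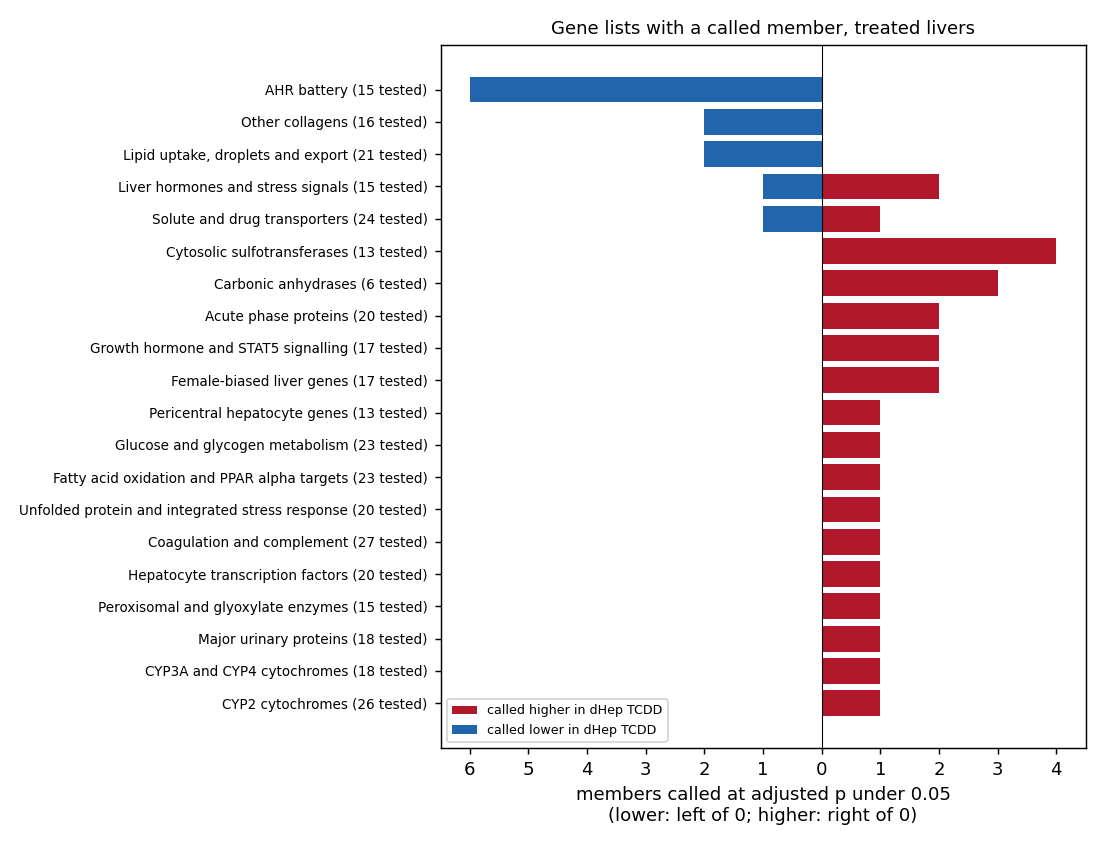
Number of genes called lower (blue, left of 0) and higher (red, right of 0) in dHep_TCDD livers for gene lists with a call. The number of genes tested is in brackets. Left out are a list taken from earlier results of these data and the 1 list whose calls are not reported here. The AHR battery has 6 lower calls, the sulfotransferases 4 higher and the carbonic anhydrases 3 higher.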

How the data were processed

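Messenger RNA of whole liver was sequenced from 18 mice in 6 groups of 3. The deposited values are raw read counts per gene for each library, whole numbers for 55536 Ensembl gene identifiers, and per the submitters' processing notes the authors used HISAT2 2.1.0 and HTSeq 0.11.3 on the build GRCm38, besides FastQC 0.11.9 and, in its version 1.22.2, DESeq2. Counting settings and use of strand are not given in the sources used here. Genes that overlap others may have lost reads, and near-identical copies cannot be told apart. Gene names, types and GRCm38 coordinates came from GENCODE M21, and promoter sequences from RefSeq (GRCm38.p6).

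From the deposited counts, low genes were first dropped by edgeR's filterByExpr (edgeR 4.0.16, R 4.3.3), libraries were scaled by TMM, and all 18 libraries were fitted with a mean per group, so that the 6 groups share 1 estimate of the spread (biological coefficient of variation 0.448). Contrasts used the quasi-likelihood F test of edgeR, and p-values were adjusted by Benjamini and Hochberg's method over the 14835 genes tested. The SE is the log2 difference divided by the square root of the F statistic. Whether a group overlaps another was read from the CPM of the 3 libraries. Total counts ran from 12706490 to 27240877 over the 18 libraries, and 3 mice a group limit the precision. Counting intervals are exact 95% binomial intervals and, like the floor of 3 counts, cover counting error only.

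The genes named are the 15 called genes with the largest log2 difference in each direction, with at least 1 CPM on average over the 6 libraries, no predicted-gene, clone or pseudogene (-ps) name and no overlap between groups (79 higher and 102 lower genes qualified). Ahr, Cyp1a1, Cyp1a2, Cyp1b1, Hao1 and Nqo1 were named in any case. Of 55 gene lists with 1048 genes, called members were named, and where none was called members were taken as examples, some of them after their values were seen. The comparison, the members and the lists were chosen with earlier results of these data known. One list holds genes with large TCDD responses in an earlier analysis of these libraries; 11 of its 14 genes were called here, which is no independent support. Of the listed genes 930 were tested, 116 were not and 2 are not in the annotation, and 50 were called, in 22 lists. The calls of 1 list are not reported here. The alternatives were RLE scaling, other filters on low counts, only the groups compared, the share of counts outside coding genes as a covariate, sets of mouse numbers, leaving out libraries, DESeq2 1.42.0 and a 2-fold minimum.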

Additional observations from a re-analysis of the deposited data

Results flagged for a closer look

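For 29 of 64 genes, the contrast of dHep minus dHSC livers differed between TCDD and vehicle. The 64 are the called genes named by rule, in any case or from a gene list. The test was the interaction contrast of the edgeR fit (quasi-likelihood test, p-values adjusted over 14835 genes). Of all genes tested 0.431% differed. The 64 genes were picked by their treated contrast, which this test reuses, so a higher share among them is no independent result. Values are the log2 difference of dHep_TCDD minus dHSC_TCDD less that of dHep_Veh minus dHSC_Veh. The contrast was more negative with TCDD for the AHR targets Ahrr (-5.90, adjusted p = 0.00163), Cyp1b1 (-5.49, adjusted p = 0.00514) and Cyp1a1 (-6.33, adjusted p = 0.00899). For these 3 the vehicle contrast was of the opposite sign, and it was not called in vehicle livers.

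It was also more negative with TCDD for Col9a2 (-13.18, adjusted p = 6.51e-05), Ism2 (-6.48, adjusted p = 9.24e-05), Nptx1 (-9.54, adjusted p = 9.78e-05), Fabp12 (-6.61, adjusted p = 0.00163), Pnliprp1 (-13.02, adjusted p = 0.00252) and Pdzrn3 (-8.07, adjusted p = 0.00426). The same held for Gipc2 (-6.86, adjusted p = 0.00818), Lnx1 (-3.98, adjusted p = 0.0239), Col4a3 (-7.44, adjusted p = 0.0266) and Insl6 (-4.93, adjusted p = 0.047). Gipc2 and Lnx1 belong to the list taken from earlier results of these data. Several of these genes were at or near 0 in dHep_TCDD or vehicle livers, so their size depends on a prior count. The edgeR call of Lnx1 between the treated groups ended without dHep_TCDD 4, dHep_TCDD 10 or dHSC_TCDD 18. Its adjusted p was 0.0599 without the 2 treated libraries that stood apart.

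The contrast was more positive with TCDD for the enzymes Sult2a7 (6.16, adjusted p = 0.00818), Ces3a (3.52, adjusted p = 0.0237), Car3 (3.52, adjusted p = 0.0277), Cyp2g1 (3.52, adjusted p = 0.0283) and Sult1a1 (2.09, adjusted p = 0.0449). It was more positive as well for Hao1 (9.22, adjusted p = 9.24e-05), Mmd2 (6.46, adjusted p = 0.00514), St6galnac6 (4.09, adjusted p = 0.0126), Slc16a10 (2.11, adjusted p = 0.0217), E2f8 (4.33, adjusted p = 0.0221) and Serpina7 (4.84, adjusted p = 0.0239). Further genes of this direction were Irx1 (5.79, adjusted p = 0.0266), Egfr (2.59, adjusted p = 0.0286), Mup3 (4.42, adjusted p = 0.0319), Slc22a26 (2.31, adjusted p = 0.0404) and Nxph1 (4.42, adjusted p = 0.0406). Without the 2 treated libraries and the vehicle libraries that stood apart, 13 genes in all passed this test, 1 of them in the positive direction.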

How the results depend on the processing

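The 220 genes called between dHep_TCDD and dHSC_TCDD livers numbered 55 (14 higher and 41 lower, 52 of them among the 220) when only the 6 compared libraries were fitted, 538 (268 higher and 270 lower) with the percentage of counts outside coding genes as a covariate, 489 (222 and 267) with DESeq2, 107 (40 and 67) without the 2 libraries that stood apart, and 98 to 177 on leaving out 1 library. The share of higher calls was 42.7% in the main fit and 25.5% with only the compared groups, and it ranged from 29.9% without dHSC_TCDD 18 to 54.1% without dHep_TCDD 4 on leaving out 1 library, so that the higher calls were the more numerous without dHep_TCDD 4 (53 higher and 45 lower) or dHep_TCDD 10 (64 and 60). RLE scaling, the other filters, mouse-number sets and the 2-fold minimum gave 213 to 228. The vehicle comparison gave 0 calls except with DESeq2 (7). The 64 genes whose contrast differed between TCDD and vehicle numbered 27 with only the compared groups, 131 with the covariate, 13 without the libraries that stood apart, 237 with DESeq2 and 25 to 64 on leaving out 1 library. Without the libraries that stood apart dHep_Veh keeps 1 library, whose spread is taken from the other groups. The cause of these shifts was not tested. Of the 30 genes named by rule, 23 were called in all 6 fits that left out 1 treated library, 22 without the libraries that stood apart, 30 with DESeq2 and 20 with only the compared groups, and no called direction reversed. The groups share no mouse numbers, so none of the samples are paired by number; a term for sets of consecutive mouse numbers called 227 genes, 199 of them among the 220. The depth limits statements on genes at or under 3 counts a group.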

Other observations

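Major urinary protein sequences differed in opposite directions. While Mup3 was higher in dHep_TCDD livers, the pseudogenes Mup-ps10, Mup-ps12, Mup-ps14 and Mup-ps7 were called lower, and they were looked at after their values were seen. Mup-ps10 had 0.389, 0.314 and 0.748 CPM in dHep_TCDD livers, against 29.4, 24.1 and 38.4 CPM in dHSC_TCDD livers (-5.99 ± 0.85, adjusted p = 0.00147). Mup-ps14 had 0.952, 0.942 and 1.02 CPM in dHep_TCDD livers, against 23, 15.2 and 36.4 CPM in dHSC_TCDD livers (-4.67 ± 0.60, adjusted p = 0.000764). In vehicle livers Mup-ps10 averaged 16.3 ± 11.6 CPM in dHep_Veh and 19.96 ± 18.3 CPM in dHSC_Veh (SD, n = 3 each), near the dHSC_TCDD level. How reads were shared among these near-identical copies was not tested.

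Among the genes with the smallest adjusted p were also 3 that the naming rule did not reach, chosen after their values were seen. Marveld3, a tight junction protein, had 1.69, 1.76 and 1.70 CPM in dHep_TCDD livers, against 22.4, 24.3 and 28.4 CPM in dHSC_TCDD livers (-3.86 ± 0.34, adjusted p = 1.4e-05), with very little spread in either group. Cyfip2, a regulator of the actin cytoskeleton, had 6.10, 4.65 and 6.33 CPM in dHep_TCDD livers, against 111, 129.96 and 48 CPM in dHSC_TCDD livers (-4.08 ± 0.44, adjusted p = 0.000128). Trpv4, a calcium channel, had 1.30, 1.13 and 1.84 CPM in dHep_TCDD livers, against 35.7, 25.1 and 41.7 CPM in dHSC_TCDD livers (-4.58 ± 0.55, adjusted p = 0.000331). In WT_TCDD livers Marveld3 averaged 27.2 ± 4.02 CPM, Cyfip2 99.4 ± 31.2 CPM and Trpv4 40.2 ± 8.14 CPM (SD, n = 3 each).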
